A study of Mus musculus with 33 samples.

Results

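The genes described here are the eukaryotic translation initiation and elongation factors of mouse quadriceps muscle, the proteins that load ribosomes onto mRNA and move them along it. They were chosen by name: 67 of the 23420 gene symbols in the count files start with Eif or Eef followed by a digit, and 64 of these had a mean level of at least 1 CPM, read counts scaled to a common library size, over the 33 libraries. The 3 symbols below that limit, Eif3j1, Eif3j2 and Eif4e1b, had mean levels of 0, 0.0298 and 0.0657 CPM. These are levels of counted reads, and the handling of reads that map to several places is not given. The members nearest above the limit were Eif4ebp3 with 2.67 CPM and Eif5a2 with 3 CPM. All 64 members passed the filter on low counts, so each could be tested. Grouped by role or name, they comprised 4 kinases of eIF2α, 4 subunits of eIF2, 5 subunits of its exchange factor eIF2B, 10 factors of scanning and start-site selection, 12 subunits of eIF3, 11 eIF4 factors, 4 proteins that bind eIF4E, 9 elongation factors and the elongation factor 2 kinase Eef2k. The remaining 4 members, Eif2c1 to Eif2c4, carry the older symbols of the Argonaute genes Ago1 to Ago4, which act in small RNA silencing and share only the name pattern.

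The libraries came from quadriceps of adult male C57BL6 mice, either Actn3 null (KO) or wild type (WT). Actn3 encodes α-actinin-3, a Z-disc protein of fast muscle fibres. A single intraperitoneal injection held either 20 mg/kg of the synthetic glucocorticoid dexamethasone, as its sodium phosphate, or saline alone. Tissue was collected 3 h or 24 h after it. The 20 dexamethasone libraries formed 4 groups of 5 (KO and WT, each at 3 h and 24 h), and the 13 saline libraries formed groups of 3 (KO 3 h), 3 (WT 3 h), 3 (KO 24 h) and 4 (WT 24 h). Whether every library comes from its own mouse is not stated in the labels, and the p-values measure only the spread between libraries, which may be technical. In whole muscle, fewer cells of a type and less RNA per cell cannot be told apart.

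Translation starts when eIF4E, bound to the mRNA cap, joins the scaffold eIF4G and the helicase eIF4A, and a small ribosomal subunit carrying eIF3 and the eIF2 ternary complex is recruited and scans for a start codon. Both entry points are regulated. The 4E-binding proteins hold eIF4E until mTORC1 phosphorylates them, and stress kinases phosphorylate the α subunit of eIF2, which then blocks its own exchange factor eIF2B. Elongation is carried by eEF1A, which delivers aminoacyl-tRNA, with its exchange complex eEF1B, and by eEF2, which translocates the ribosome. Glucocorticoids are known to lower protein synthesis in fast muscle, and 4E-BP1 and the mTORC1 inhibitor REDD1 are long-studied parts of that response.

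The promoters of 4 members are shown because their response to dexamethasone differed between the times: Eif2ak4 was called at 3 h and not at 24 h, and Eif4a1, Eif4a2 and Eif4e2 at 24 h and not at 3 h. They were picked after these values were seen. Of the 7 members whose effect differed between the times in the edgeR test, Eif2c1, Eif2d and Eef1a1 are not shown. Each run is the 250 bases before the transcription start, 5′ to 3′ on the gene's own strand, from RefSeq, GRCm38.p6, at chr2:118388367-118388616 (+) for Eif2ak4, chr11:69672424-69672673 (−) for Eif4a1, chr16:23107218-23107467 (+) for Eif4a2 and chr1:87213661-87213910 (+) for Eif4e2. RefSeq lists 2 starts for Eif2ak4 and 3 for Eif4e2, and the first listed start was used for every gene. Capitals mark the half-site of the cyclic AMP response element, TGACG, on either strand.
Eif2ak4: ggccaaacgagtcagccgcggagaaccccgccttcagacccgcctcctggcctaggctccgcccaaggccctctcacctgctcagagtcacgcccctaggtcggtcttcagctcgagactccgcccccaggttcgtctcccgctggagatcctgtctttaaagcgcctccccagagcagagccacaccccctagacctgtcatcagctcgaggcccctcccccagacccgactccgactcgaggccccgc
Eif4a1: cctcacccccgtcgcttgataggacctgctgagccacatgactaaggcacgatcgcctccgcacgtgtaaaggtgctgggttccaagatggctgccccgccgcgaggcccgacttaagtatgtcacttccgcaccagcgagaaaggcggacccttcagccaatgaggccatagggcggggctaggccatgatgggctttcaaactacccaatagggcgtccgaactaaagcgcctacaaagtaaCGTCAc
Eif4a2: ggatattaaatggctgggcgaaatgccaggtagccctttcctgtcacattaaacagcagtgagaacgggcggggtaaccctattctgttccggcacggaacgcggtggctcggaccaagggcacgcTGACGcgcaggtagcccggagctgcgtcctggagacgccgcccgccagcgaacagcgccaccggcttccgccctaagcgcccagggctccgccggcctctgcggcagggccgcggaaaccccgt
Eif4e2: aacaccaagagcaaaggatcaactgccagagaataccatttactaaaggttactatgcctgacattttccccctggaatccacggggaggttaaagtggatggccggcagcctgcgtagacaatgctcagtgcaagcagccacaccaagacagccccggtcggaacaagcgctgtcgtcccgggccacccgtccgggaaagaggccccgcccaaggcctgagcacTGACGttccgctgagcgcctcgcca
The half-site lies 6 bases before the start of Eif4a1, 124 before that of Eif4a2 and 25 before that of Eif4e2, and the letters are not in the Eif2ak4 window. Windows were given for 48 of the 64 members, and 20 of them (41.7%) held TGACG, against 4827 of all 27025 gene windows (17.9%). The E-box CACGTG was in 9 of the 48 member windows (18.8%), the one of Eif4a1 included, against 6.05% of all windows. The CCAAT box, CCAAT, was in 13 (27.1%) against 34.5%. Of the motifs of stress and hormone factors, the amino acid response element TGATGNAA was in 1 window (2.08%, against 3.53% of all), the FoxO site GTAAACA in 1 (2.08%, against 3.09%) and the palindromic glucocorticoid response element in 0 of 48, against 0.381% of all. All motifs were searched on both strands, and CACGTG and TGACG share no full match. The 27025 windows are of all genes whatever their level in muscle, while the members were kept for their level. Base composition was not matched, and its part in these shares was not tested. For a motif in 0.381% of windows, 48 windows are too few to show a lack.

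Library depth was 19.7 to 42.8 M gene counts. Actn3 ran from 31.9 to 84.1 CPM in KO libraries and from 6959 to 9704 CPM in WT libraries, so the genotype labels held in every library. Of 8 muscle fibre markers all were detected and tested, with summed levels of 108431 to 186404 CPM over the libraries. The names of 5 libraries start with ML1716 rather than ML1715 (KO dexamethasone 3 h replicate 5, KO dexamethasone 24 h replicates 4 and 5, WT dexamethasone 24 h replicate 5, WT saline 24 h replicate 4), and the labels do not say what the prefix stands for. In all 4 groups that hold such a library, it lay above the others for 6 members (Eef1b2, Eef1e1, Eif2b1, Eif3m, Eif4a1, Eif4h) and below them for 5 (Eef1a2, Eif3h, Eif4ebp2, Eif4g1, Eif4g3). Counts of members are therefore also given without these 5 libraries.

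Measured per kilobase of exon, the most abundant members were the muscle isoform of the elongation factor Eef1a2, with a mean level of 888 CPM per kb over the 33 libraries (range 567 to 1132), and the translocase Eef2 with 465 (range 370 to 537). Eef1a1, the general isoform, followed with a level of 254 CPM per kb (range 207 to 347), and the ranges of these 3 genes over the libraries do not overlap. Next came Eif1 with a level of 182, Eif4g1 with 149 and Eif4g2 with 110 CPM per kb. The eIF2α kinases Eif2ak4 and Eif2ak3 were near the bottom with levels of 1.3 and 1.2, above only Eif5a2 with 0.591 and Eif2c3 with 0.545 CPM per kb.

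Dexamethasone moved a minority of the translation factors, by small amounts, and at 24 h mostly upward. The split by direction at 3 h depended on the scaling. As a mean of the genotypes, 11 members rose and 2 fell at 3 h, and 14 rose and 1 fell at 24 h, in edgeR's quasi-likelihood test with Benjamini-Hochberg adjustment over all 13955 genes tested at a false discovery rate of 0.05. That is 20.3% of members at 3 h, where 29.1% of all genes were called, and 23.4% at 24 h, where 25.5% were called; by direction, 14.8% of all genes rose and 14.3% fell at 3 h, and 12.8% rose and 12.6% fell at 24 h. The median log2 fold change over the 64 members was 0.04 at 3 h and 0.08 at 24 h, against 0.00 for all genes at either time. Scaled by library totals, 6 members rose and 5 fell at 3 h (10.8% and 18.4% of all genes), with a median of −0.01 over the members and −0.05 over all genes. In that scaling 9 rose and 1 fell at 24 h (10.2% and 13.5% of all genes), with medians of 0.05 and −0.02. The members called lower at 3 h in that scaling were Eif2ak2 and Eif2c1, as before, and Eef2k, Eif2a and Eif5b. None of the 64 passed 2-fold in any of the 6 comparisons of dexamethasone with saline. Without the ML1716 libraries 19 members were called at 3 h (16 higher, 3 lower) and 17 at 24 h (15 higher, 2 lower), and without KO saline 3 h replicate 2, or without WT saline 3 h replicate 2, 8 were called at 3 h. The share of all genes called in these fits is not given. Of the 13 calls at 3 h, 8 held in all 8 other settings and with any library left out (Eef1d, Eif2ak2, Eif2ak4, Eif2c1, Eif3i, Eif3k, Eif4ebp1, Eif5a), as did 9 of the 15 at 24 h (Eef1a1, Eef1d, Eif1, Eif2b1, Eif4a1, Eif4a2, Eif4a3, Eif4e2, Eif4ebp1).

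**Figure D1:**
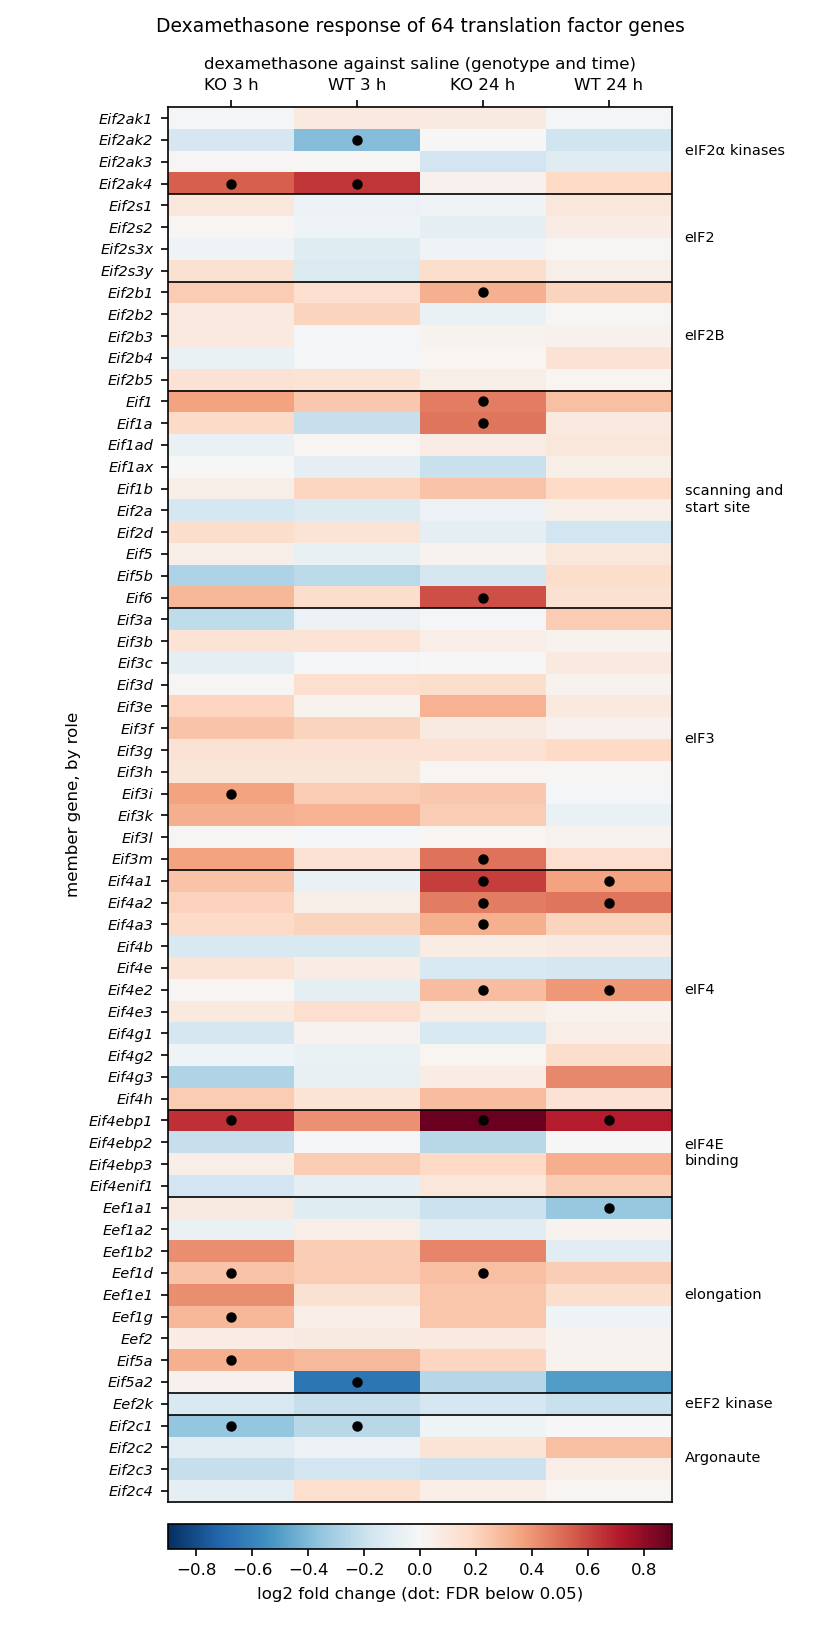
log2 fold change of each of the 64 members after dexamethasone against saline, in KO and WT at 3 h and 24 h, with members in rows by role; a dot marks an edgeR adjusted p under 0.05. The rows with dots at both genotypes are Eif2ak4 and Eif2c1 at 3 h and Eif4a1, Eif4a2, Eif4e2 and Eif4ebp1 at 24 h.

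Within a genotype the counts were lower. In KO muscle 6 members rose and 1 fell at 3 h (10.9%, against 17.5% of all genes, with 9.02% higher and 8.51% lower), and 11 rose and 0 fell at 24 h (17.2%, against 10.9% of all genes, with 5.87% higher and 5.02% lower). In WT muscle 1 rose and 3 fell at 3 h (6.25%, against 14.9% of all genes, with 6.77% higher and 8.16% lower), and 4 rose and 1 fell at 24 h (7.81%, against 13.8%, with 6.77% higher and 6.98% lower). With the name series (ML1715 or ML1716) as a covariate the KO count at 24 h was 5 (5 higher). Of the libraries behind it, 2 of the 5 KO dexamethasone libraries at 24 h and 0 of the 3 KO saline libraries carry the ML1716 prefix. Scaled by library totals the KO count at 3 h was 4 (3 higher, 1 lower). Without the ML1716 libraries the KO counts were 9 at 3 h and 8 at 24 h, and the WT counts 8 at 3 h (5 higher, 3 lower) and 8 at 24 h (7 higher, 1 lower). For these other settings the share of all genes called is not given. Single libraries moved the counts of members too. The KO count at 3 h was 2 without KO saline replicate 2, 4 without KO saline replicate 1 or 3 or dexamethasone replicate 5, and 12 without dexamethasone replicate 1. The KO count at 24 h was 7, 4 and 6 without KO saline replicates 1, 2 and 3, and 7 and 5 without dexamethasone replicates 4 and 5. The WT count at 3 h was 2 without any of the 3 WT saline libraries or dexamethasone replicate 2 or 4, and that at 24 h was 8 without WT saline replicate 1 and 9 without dexamethasone replicate 5. The dexamethasone libraries lay wholly above their saline libraries for 10 members and wholly below for 3 in KO at 3 h, where 23.1% of all genes did not overlap, and for 10 and 3 members in WT at 3 h, against 23.9%. At 24 h the numbers were 10 and 1 in KO, against 15.8% of all genes, and 5 and 1 in WT, against 11.8%.

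Among the eIF2α kinases, Eif2ak4 rose and Eif2ak2 fell at 3 h, and edgeR called neither at 24 h. Eif2ak4 (chr2:118388618-118475234 on GRCm38, GENCODE M21) encodes GCN2, which is activated by uncharged tRNA when amino acids are scarce. In KO muscle at 3 h its level was 14.5, 11.9, 10.6, 10.9 and 11.5 CPM after dexamethasone, against 8.3, 8.83 and 7.4 CPM after saline. The WT values at 3 h were 12.8, 11.9, 14.1, 13.8 and 11.7 CPM after dexamethasone, against 8.88, 8.27 and 7.55 CPM after saline. Every dexamethasone library was above every saline library of either genotype at that time. The log2 fold change was 0.54 ± 0.107 (SE) in KO (edgeR adjusted p = 0.000318) and 0.64 ± 0.108 in WT (edgeR adjusted p = 3.55e-05), and as a mean of the genotypes 0.59 ± 0.0758 (edgeR adjusted p = 1.75e-07), a 1.51-fold level. At 24 h the groups overlapped: Eif2ak4 averaged 8.7 ± 0.89 CPM in KO dexamethasone (SD, n = 5) and 8.46 ± 0.39 CPM in KO saline libraries (n = 3), and 9.15 ± 0.48 CPM in WT dexamethasone (n = 5) and 8.08 ± 0.775 CPM in WT saline libraries (n = 4). The 24 h mean log2 fold change was 0.11 ± 0.073 (edgeR adjusted p = 0.294), and the effect at 24 h differed from that at 3 h by −0.48 ± 0.105 (edgeR adjusted p = 0.00066).

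Eif2ak2 (chr17:78852564-78882573) encodes PKR, the kinase activated by double-stranded RNA. In WT muscle at 3 h it measured 11.5, 11.1, 11.7, 8.91 and 10.9 CPM after dexamethasone, against 13.3, 14 and 15.3 CPM after saline, with no overlap. In KO muscle at 3 h it measured 9.87, 11.1, 12.5, 11.1 and 10.7 CPM after dexamethasone, against 10.2, 13.2 and 13.4 CPM after saline, where the lowest saline library lies inside the dexamethasone range. The log2 fold change was −0.39 ± 0.102 in WT (edgeR adjusted p = 0.00576; 0.0591 without WT saline 3 h replicate 3) and −0.15 ± 0.102 in KO (edgeR adjusted p = 0.341), and the difference between the genotypes was 0.24 ± 0.145 (edgeR adjusted p = 0.999). The genotype mean was −0.27 ± 0.0719 at 3 h (edgeR adjusted p = 0.00442) and −0.09 ± 0.0696 at 24 h (edgeR adjusted p = 0.35). The 2 other kinases were not called: Eif2ak1, the haem-regulated kinase HRI, had mean log2 fold changes of 0.03 at 3 h and 0.03 at 24 h (edgeR adjusted p = 0.692 and 0.709), and Eif2ak3, the endoplasmic reticulum kinase PERK, 0.01 and −0.14 (edgeR adjusted p = 0.95 and 0.249). At 24 h 0 of the 4 kinases were called by edgeR, DESeq2 or limma-voom, and 0 had an unadjusted edgeR p under 0.05 in the genotype mean. In WT muscle at 24 h, however, the authors' deposited table lists Eif2ak2 as lower, with a log2 fold change of −0.31 (adjusted p = 0.00856 in the authors' deposited table), where the edgeR fit gave −0.18 ± 0.0943 (edgeR adjusted p = 0.213).

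The substrate of these kinases showed no call. Of the 4 eIF2 subunits (Eif2s1 for the α subunit, Eif2s2 for β, and Eif2s3x and Eif2s3y for γ), 0 were called as a genotype mean at either time by edgeR, DESeq2 or limma-voom, 0 had an unadjusted edgeR p under 0.05, and their log2 fold changes ran from −0.07 to 0.02 at 3 h and from −0.01 to 0.10 at 24 h. Of the 5 subunits of eIF2B, the exchange factor that reloads eIF2 with GTP, 0 were called by edgeR at 3 h (1 had an unadjusted p under 0.05; DESeq2 and limma-voom each called Eif2b1) and 1 at 24 h. That 1 was Eif2b1, the α subunit, with a log2 fold change of 0.26 at 24 h (edgeR adjusted p = 0.00719). In KO at 24 h its change of 0.32 (edgeR adjusted p = 0.0479) was 0.15 without the ML1716 libraries (edgeR adjusted p = 0.256).

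Eif4ebp1 (chr8:27260329-27276674, GRCm38), which encodes the eIF4E inhibitor 4E-BP1, had the largest fold change of the 64 members at 24 h and rose at both times. In KO muscle at 3 h its level was 25.2, 26.4, 22, 26.8 and 33.7 CPM after dexamethasone, against 19.6, 15.2 and 16.4 CPM after saline. The WT values at 3 h were 28.8, 28.5, 29.5, 29.1 and 36.8 CPM after dexamethasone, against 23, 19.2 and 26.9 CPM after saline. At 3 h the dexamethasone libraries of each genotype lay above the saline libraries of that genotype. At 24 h KO muscle had 36.4, 40.9, 36.5, 28 and 41.3 CPM after dexamethasone, against 18.5, 16.3 and 24.5 CPM after saline. WT muscle at 24 h had 47.7, 49.4, 43, 39 and 39.2 CPM after dexamethasone, against 19.5, 38.6, 29.1 and 19.1 CPM after saline. Again no group overlapped its control, although WT saline replicate 2 reached close to the lowest dexamethasone library.

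The log2 fold change of Eif4ebp1 was 0.66 ± 0.181 in KO at 3 h (edgeR adjusted p = 0.00943; 0.079 without KO saline 3 h replicate 2) and 0.41 ± 0.179 in WT (edgeR adjusted p = 0.134), with a difference between genotypes of 0.25 ± 0.25 (edgeR adjusted p = 0.999). At 24 h it was 0.89 ± 0.182 in KO (edgeR adjusted p = 0.00135) and 0.71 ± 0.162 in WT (edgeR adjusted p = 0.00294). The genotype mean was 0.53 ± 0.127 at 3 h, a 1.45-fold level (edgeR adjusted p = 0.00157), and 0.80 ± 0.122 at 24 h, a 1.74-fold level (edgeR adjusted p = 1.01e-05). The effect at 24 h minus that at 3 h was 0.27 ± 0.173 (edgeR adjusted p = 0.262), so a difference between the times was not detected. The 3 other proteins that bind eIF4E were not called at either time: Eif4ebp2, the most abundant 4E-BP here, had mean log2 fold changes of −0.11 and −0.12 at 3 h and 24 h, Eif4ebp3 of 0.15 and 0.25, and Eif4enif1, the eIF4E transporter, of −0.13 and 0.16.

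**Figure D2:**
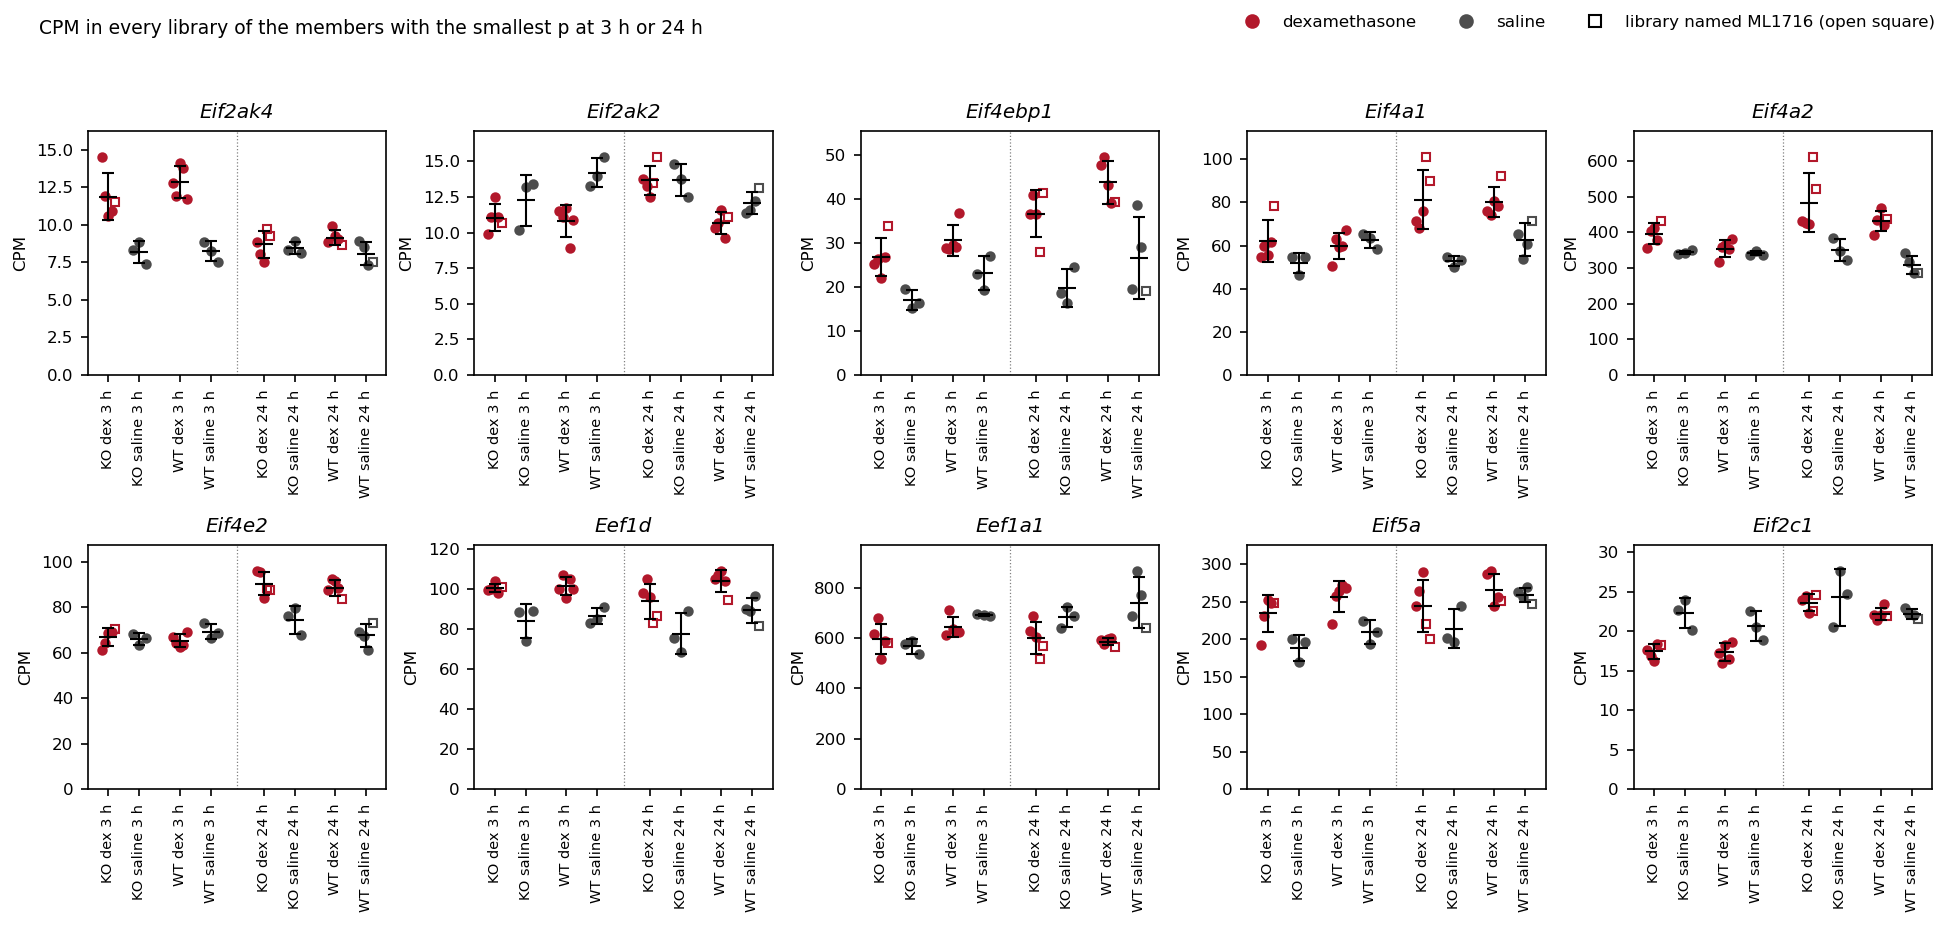
CPM of each library for the 10 called members with the smallest p at 3 h or 24 h, in the 8 groups (KO dexamethasone, KO saline, WT dexamethasone, WT saline at each time); points are libraries, bars the mean ± SD, open squares the ML1716 libraries. Eif2ak4 is raised at 3 h and Eif4a1, Eif4a2 and Eif4e2 at 24 h, while Eif4ebp1 is raised at both times.

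Of the 11 eIF4 factors, 1 rose at 3 h, with a median log2 fold change of 0.10 (9.09% called, against 29.1% of all genes), and 4 rose at 24 h, with a median of 0.21 (36.4% called, against 25.5% of all genes). Eif4a1 and Eif4a2 encode the paralogous RNA helicases of the cap-binding complex. In KO muscle at 24 h Eif4a1 measured 71.6, 68.1, 75.9, 101 and 90.1 CPM after dexamethasone, against 54.9, 50.3 and 53.2 CPM after saline. The WT libraries at 24 h held 76.1, 74.4, 80.9, 78.4 and 92.1 CPM after dexamethasone, against 65.3, 53.6, 60.7 and 71.4 CPM after saline. The groups did not overlap in either genotype, and the highest KO values and the highest WT values of both treatments were ML1716 libraries. Its log2 fold change was 0.62 ± 0.124 in KO (edgeR adjusted p = 0.00102) and 0.36 ± 0.111 in WT (edgeR adjusted p = 0.0283), and 0.49 ± 0.0831 as a mean (edgeR adjusted p = 4.3e-05). Without the ML1716 libraries it was 0.44 in KO, 0.37 in WT and 0.41 as a mean (edgeR adjusted p = 0.00223, 0.00359 and 2.43e-05). The WT call was lost in 4 of the 9 fits that left out 1 of its libraries (highest edgeR adjusted p = 0.126, without WT saline 24 h replicate 2).

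Eif4a2 is the more abundant helicase gene in this muscle, with a median level of 68.2 CPM per kb over the libraries, against 14.5 for Eif4a1. In KO muscle at 24 h it measured 432, 425, 424, 611 and 522 CPM after dexamethasone, against 383, 347 and 323 CPM after saline. In WT muscle at 24 h it measured 392, 436, 469, 422 and 437 CPM after dexamethasone, against 341, 318, 287 and 287 CPM after saline. Dexamethasone and saline libraries did not overlap, and the 2 highest KO libraries were from the ML1716 series. The log2 fold change was 0.46 ± 0.101 in KO (edgeR adjusted p = 0.00273), 0.48 ± 0.0923 in WT (edgeR adjusted p = 0.000478) and 0.47 ± 0.0685 as a mean (edgeR adjusted p = 4.75e-06); without the ML1716 libraries the KO value was 0.28 (edgeR adjusted p = 0.0272) and the mean 0.37. Of its exon bases 13.3% are shared with other genes, among them the small nucleolar RNAs in its introns and Rfc4, and with an unstranded kit their reads cannot be told apart.

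Eif4e2 encodes 4EHP, a cap-binding homologue of eIF4E that does not bind eIF4G and represses the mRNAs it holds. In KO muscle at 24 h it measured 95.9, 95.7, 84.3, 88.4 and 87.6 CPM after dexamethasone, against 76.2, 79.5 and 67.6 CPM after saline. The WT libraries at 24 h held 87.4, 92.5, 91.4, 88.4 and 83.5 CPM after dexamethasone, against 69, 67.3, 61 and 73.2 CPM after saline. All 10 dexamethasone libraries were above all 7 saline libraries. In log2 terms the change was 0.28 ± 0.0743 in KO (edgeR adjusted p = 0.0125; 0.116 without KO saline 24 h replicate 3), 0.39 ± 0.068 in WT (edgeR adjusted p = 0.000183) and 0.34 ± 0.0504 as a mean (edgeR adjusted p = 8.2e-06). At 3 h the mean changes of Eif4a1, Eif4a2 and Eif4e2 were 0.10, 0.13 and −0.03 (edgeR adjusted p = 0.41, 0.166 and 0.663).

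The canonical cap-binding protein and its scaffold were not called. Eif4e had mean log2 fold changes of 0.10 at 3 h and −0.15 at 24 h (edgeR adjusted p = 0.376 and 0.144), and averaged 90.3 ± 11.2 CPM in KO dexamethasone libraries at 24 h (SD, n = 5), against 99.9 ± 8.2 CPM in KO saline libraries (n = 3). Eif4g1 had changes of −0.06 and −0.04 (edgeR adjusted p = 0.589 and 0.756). Eif4a3, the helicase of the exon junction complex, rose at both times, by a log2 fold change of 0.18 at 3 h (edgeR adjusted p = 0.0382) and 0.26 at 24 h (edgeR adjusted p = 0.00264). Its 3 h value was 0.08 with exon length as an offset in each library (edgeR adjusted p = 0.282).

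Of the 10 members grouped as scanning and start-site factors, Eif6 among them, 1 rose at 3 h (10% called, against 29.1% of all genes) and 4 rose at 24 h (40%, against 25.5%). Eif1, which guards the choice of start codon, was the one that rose at both times: its log2 fold change was 0.30 at 3 h (edgeR adjusted p = 0.0176) and 0.36 at 24 h (edgeR adjusted p = 0.00416). It averaged 432 ± 43.5 CPM in KO dexamethasone (SD, n = 5) and 315 ± 40.8 CPM in KO saline libraries at 24 h (n = 3), and 487 ± 32.2 CPM in WT dexamethasone (n = 5) and 404 ± 55.3 CPM in WT saline libraries (n = 4). Eif1b, its close paralogue, rose at 24 h by 0.22 (edgeR adjusted p = 0.023), Eif1a, which acts with eIF1 in scanning, by 0.29 (edgeR adjusted p = 0.0309) and Eif6, which keeps the large subunit from joining too early, by 0.36 (edgeR adjusted p = 0.0306). For Eif1a and Eif6 the call was lost in 6 of the 17 fits that left out 1 library each (highest edgeR adjusted p = 0.0771 and 0.0734).

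The eIF3 subunits form the largest initiation complex. A set of 12 is too small to set the shares called below apart from those of all genes. Of 12, 3 rose at 3 h (25%, against 29.1% of all genes), with a median log2 fold change of 0.11, and 2 rose at 24 h (16.7%, against 25.5% of all genes), with a median of 0.09. None fell. All 12 had a positive value at 24 h, from 0.01 to 0.32, but 10 of them did not pass the test. At 3 h the called subunits were Eif3i with 0.29 (edgeR adjusted p = 0.00536), Eif3k with 0.32 (edgeR adjusted p = 0.0103) and Eif3f with 0.23 (edgeR adjusted p = 0.0399; 0.0613 without the ML1716 libraries). Eif3f, the subunit that atrophy studies have followed because the ubiquitin ligase MAFbx targets its protein, averaged 64.2 ± 11.9 CPM in KO dexamethasone (SD, n = 5) and 53.7 ± 7.49 CPM in KO saline libraries at 3 h (n = 3), with overlapping ranges. At 24 h the called subunits were Eif3g with 0.16 (edgeR adjusted p = 0.0157) and Eif3m with 0.32 (edgeR adjusted p = 0.0275; 0.23 without the ML1716 libraries).

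Among the 9 members grouped as elongation factors 4 rose at 3 h, with a median log2 fold change of 0.18 (44.4% called, against 29.1% of all genes), and 1 rose and 1 fell at 24 h (22.2%, against 25.5%). The group and its 3 h calls include Eef1e1, which shares the name but belongs to the tRNA synthetase complex. Eef1d (chr15:75894205-75909556), the δ subunit of the eEF1B exchange complex, was the one that rose at both times. At 3 h it measured 99.7, 100, 104, 98.1 and 101 CPM in KO dexamethasone libraries, against 88.6, 74.1 and 89.2 CPM in KO saline libraries. In WT muscle at 3 h it measured 100, 107, 95.4, 105 and 100 CPM after dexamethasone, against 83.3, 85.2 and 91.1 CPM after saline. The 10 dexamethasone libraries at 3 h spanned 95.4 to 107 CPM and all exceeded the 6 saline libraries. At 24 h it measured 98.2, 105, 96.2, 83.2 and 86.5 CPM in KO dexamethasone libraries, against 75.8, 68.6 and 88.9 CPM in KO saline libraries, which overlap. Its WT values at 24 h were 105, 107, 109, 104 and 94.6 CPM after dexamethasone, against 90, 89, 96.6 and 81.7 CPM after saline, which overlap in 1 library each. The mean log2 fold change of Eef1d was 0.25 ± 0.0604 at 3 h (edgeR adjusted p = 0.00199) and 0.24 ± 0.058 at 24 h (edgeR adjusted p = 0.00223). The calls within KO were lost in 2 of the 8 fits that left out 1 of its libraries at 3 h (highest edgeR adjusted p = 0.284) and in 5 of the 8 at 24 h (highest edgeR adjusted p = 0.26).

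Eif5a (chr11:69916714-69921958), which binds stalled ribosomes and carries the modified residue hypusine, rose at 3 h. In KO muscle it measured 193, 231, 253, 248 and 248 CPM after dexamethasone, against 200, 169 and 196 CPM after saline, and only dexamethasone replicate 1 lay within the saline range. In WT muscle it measured 221, 258, 264, 273 and 269 CPM after dexamethasone, against 225, 194 and 210 CPM after saline, where dexamethasone replicate 1 was again the one library inside the saline range. The mean log2 fold change was 0.30 ± 0.0757 at 3 h (edgeR adjusted p = 0.00227) and 0.11 at 24 h (edgeR adjusted p = 0.268). The call within KO at 3 h (0.32 ± 0.107, edgeR adjusted p = 0.0373) was lost in 7 of the 8 fits that left out 1 of its libraries. The paralogue Eif5a2, one of the least abundant members, had a log2 fold change of −0.65 ± 0.222 in WT at 3 h (edgeR adjusted p = 0.0451, lost in 7 of 8 such fits with a highest value of 0.256) and 0.04 ± 0.223 in KO (edgeR adjusted p = 0.933).

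Eef1a1 (chr9:78478449-78489151), the eEF1A gene of most non-muscle cells, fell at 24 h, as the 1 member called lower there. In WT muscle it measured 592, 578, 596, 600 and 565 CPM after dexamethasone, against 687, 866, 772 and 640 CPM after saline, with no overlap. In KO muscle it measured 627, 687, 605, 517 and 567 CPM after dexamethasone, against 641, 723 and 688 CPM after saline, where 1 dexamethasone library lies in the saline range. Its log2 fold change was −0.34 ± 0.0856 in WT (edgeR adjusted p = 0.00698; 0.0592 without WT saline 24 h replicate 2), −0.19 ± 0.093 in KO (edgeR adjusted p = 0.195) and −0.26 ± 0.0632 as a mean (edgeR adjusted p = 0.00236). The difference between genotypes was 0.15 ± 0.127 (edgeR adjusted p = 0.801). The muscle isoform Eef1a2 had mean log2 fold changes of −0.01 at 3 h and −0.04 at 24 h (edgeR adjusted p = 0.969 and 0.808), and Eef2 of 0.08 and 0.06 (edgeR adjusted p = 0.449 and 0.564). Eef1b2, an exchange subunit of eEF1B, and Eef1e1, an auxiliary protein of the tRNA synthetase complex, rose at 3 h by 0.32 and 0.28 (edgeR adjusted p = 0.0367 and 0.0479), calls that were lost in 8 and 11 of the 16 fits that left out 1 library each (highest edgeR adjusted p = 0.0991 and 0.125).

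Some markers of other cells in the muscle moved as well. Of all genes, 29.1% were called at 3 h and 25.5% at 24 h as a genotype mean, and several of the counts below are near or under these shares. Of 9 macrophage markers tested, 5 fell as a genotype mean at 24 h and 0 rose, and their summed level was 239 to 279 CPM in KO dexamethasone libraries, against 260 to 327 CPM in KO saline libraries, and 227 to 274 CPM in WT dexamethasone libraries, against 294 to 545 CPM in WT saline libraries. Of 10 fibroblast markers 8 fell and 1 rose at 24 h, with summed levels of 2540 to 2881 CPM in KO dexamethasone libraries, against 2634 to 2793 CPM in KO saline libraries, and 2705 to 2900 CPM in WT dexamethasone libraries, against 2942 to 3406 CPM in WT saline libraries. At 3 h 6 of the 9 macrophage markers rose and 0 fell, with a summed level of 407 to 536 CPM in KO dexamethasone libraries, against 222 to 253 CPM in KO saline libraries, and 545 to 664 CPM in WT dexamethasone libraries, against 268 to 287 CPM in WT saline libraries. Of 10 endothelial markers 3 rose and 6 fell at 3 h, with a summed level of 360 to 444 CPM in KO dexamethasone libraries, against 467 to 570 CPM in KO saline libraries, and 369 to 445 CPM in WT dexamethasone libraries, against 471 to 576 CPM in WT saline libraries. At 24 h 2 rose and 1 fell. Fibroblast markers counted 1 higher and 1 lower at 3 h. Muscle fibre markers counted 1 higher of 8 at 3 h and 1 lower at 24 h, and adipocyte markers 2 higher and 1 lower of 6 at 3 h and 0 at 24 h. Satellite cell markers counted 3 lower of 5 at 3 h and 1 lower at 24 h, and the 2 blood markers tested 1 higher and 1 lower at 3 h and 2 lower at 24 h. Hba-a1, of red cells, was at 0 in every library, and Hbb-bs has no entry in the counts. The handling of reads that map to several places is not given, so this 0 does not show a lack of red cells. The part of these cells in the changes of Eef1a1, Eif2ak2 or any other member was not tested.

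Eif2c1 (chr4:126435012-126468583), the older symbol of the Argonaute gene Ago1, fell at 3 h. In KO muscle it measured 17.6, 16.8, 16.2, 18.4 and 18.3 CPM after dexamethasone, against 22.7, 23.9 and 20.2 CPM after saline. In WT muscle it measured 17.2, 16, 18.3, 16.5 and 18.6 CPM after dexamethasone, against 22.6, 20.5 and 18.9 CPM after saline. The groups did not overlap in either genotype, although the highest WT dexamethasone library came close to the lowest WT saline one. Its log2 fold change was −0.35 ± 0.0831 in KO (edgeR adjusted p = 0.00257), −0.25 ± 0.0839 in WT (edgeR adjusted p = 0.0354, lost in 5 of the 8 fits that left out 1 of its libraries, highest value 0.24) and −0.30 ± 0.059 as a mean (edgeR adjusted p = 0.000151). At 24 h the mean was −0.02 (edgeR adjusted p = 0.821). Of the other Argonaute genes, Eif2c2 (Ago2) rose at 24 h by 0.20 (edgeR adjusted p = 0.0468, lost in 10 of 17 such fits, highest value 0.126). Without the 4 Argonaute genes the counts over the remaining 60 members were 11 higher and 1 lower at 3 h, and 13 higher and 1 lower at 24 h.

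Most called members were called at 1 time point. Called with the same direction at both were 4 members (Eef1d, Eif1, Eif4a3 and Eif4ebp1), while 9 were called at 3 h and not at 24 h, and 11 at 24 h and not at 3 h. The same split over all genes was not counted, and a call at 1 time alone does not test a difference. The difference itself, the genotype-mean effect at 24 h minus that at 3 h, passed the test for 7 of 64 members (10.9%, against 26.5% of all genes, with 13.8% higher and 12.6% lower), for 9 with library totals (7 higher, 2 lower), for 11 without the ML1716 libraries (7 higher, 4 lower), and for 11 without WT dexamethasone 24 h replicate 5 alone. It was positive for Eif4e2 (0.37 ± 0.0722, edgeR adjusted p = 0.00019), Eif4a2 (0.34 ± 0.0976, edgeR adjusted p = 0.00871), Eif4a1 (0.39 ± 0.118, edgeR adjusted p = 0.0131) and Eif2c1 (0.28 ± 0.0822, edgeR adjusted p = 0.0104). It was negative for Eif2ak4, Eif2d (−0.26 ± 0.0828, edgeR adjusted p = 0.0171) and Eef1a1 (−0.25 ± 0.0917, edgeR adjusted p = 0.0442). For Eef1a1 the call was lost in 18 of the 33 fits that left out 1 library each (highest edgeR adjusted p = 0.0869). Eif2d, a start-site factor that can deliver tRNA without eIF2, was called at neither time itself, with mean changes of 0.14 at 3 h and −0.12 at 24 h (edgeR adjusted p = 0.0788 and 0.111).

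**Figure D3:**
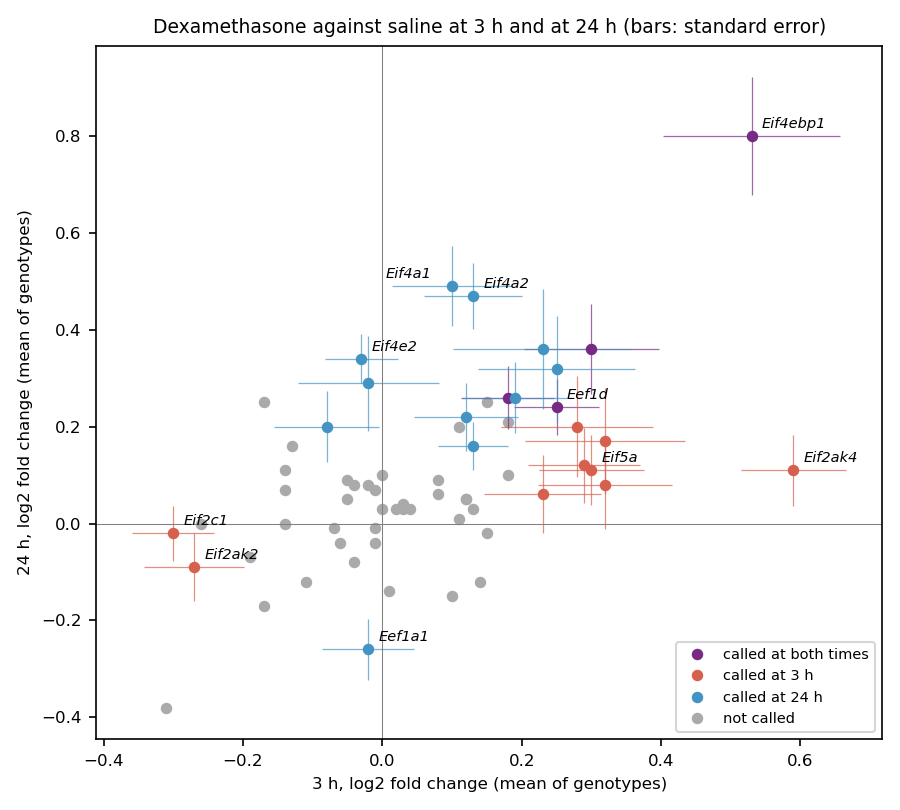
Genotype-mean log2 fold change of each member after dexamethasone at 3 h (horizontal axis) and at 24 h (vertical axis), with standard errors as bars. Eif4ebp1 stands at 0.53 and 0.80, Eif2ak4 far to the right at 0.59 and 0.11, and Eif4a1 and Eif4a2 high on the vertical axis at 0.49 and 0.47.

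In saline libraries alone, 0 of the 64 members differed between 24 h and 3 h in edgeR, where 2.47% of all genes were called (1.09% higher, 1.38% lower); 11 members had an unadjusted p under 0.05. DESeq2 called 1 (Eif3f, log2 difference 0.32) and limma-voom 4 (Eif3f 0.32, Eif5a 0.26, Eef1a1 0.20 and Eif3a −0.27). These saline libraries also enter the comparison of the dexamethasone effects between the times. For Eef1a1 the KO saline libraries ran from 641 to 723 CPM at 24 h and from 535 to 589 CPM at 3 h, without overlap.

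A difference between KO and WT in the response to dexamethasone was not detected for any member. At 3 h and at 24 h 0 of 64 members and 0% of all genes were called by edgeR, and 0 members by DESeq2 and by limma-voom. At an unadjusted edgeR p under 0.05 there was 1 member at each time, Eif5a2 at 3 h (KO minus WT 0.68 ± 0.316) and Eef1b2 at 24 h (0.54 ± 0.221). The members' effects in KO and WT had the same sign for 47 of 64 at each time. Across the 64 genes Pearson's r between the KO and WT log2 fold changes was 0.68 at 3 h and 0.62 at 24 h (Spearman's rho 0.69 and 0.52), from groups that share no library; genes are not independent replicates, and depth and exon length are common to both sides.

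**Figure D4:**
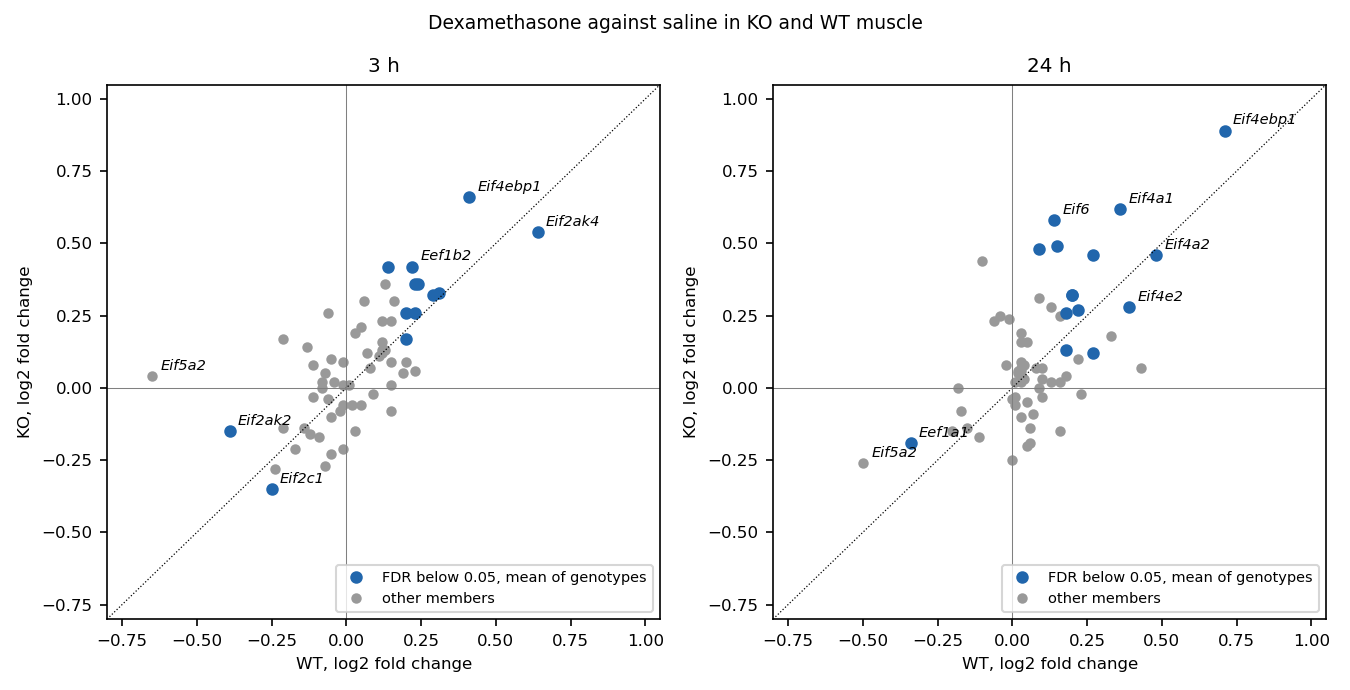
log2 fold change after dexamethasone in KO (vertical axis) against WT (horizontal axis), 1 point per member, at 3 h and at 24 h. Most of the 64 points lie near 0 on both axes, and Eif2ak4 at 3 h (0.54 in KO, 0.64 in WT) and Eif4ebp1 at 24 h (0.89 in KO, 0.71 in WT) stand farthest out.

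Between the genotypes, compared in saline libraries as a mean of the times, 7 members differed: 2 were higher and 5 lower in KO than in WT (10.9%, against 8.99% of all genes, with 4.02% higher and 4.97% lower). Eif4e3, a further cap-binding homologue of eIF4E, had the smallest p of the 7. It measured 55.1, 54.1 and 56.7 CPM in KO saline libraries at 3 h, against 45.5, 42 and 43.1 CPM in WT saline libraries, and 51.9, 52.2 and 52.3 CPM in KO saline libraries at 24 h, against 43.5, 43.7, 42.3 and 45.6 CPM in WT saline libraries. Every KO value was above every WT value, with a log2 difference of 0.30 ± 0.0677 (edgeR adjusted p = 0.00416). The other higher member was Eif2b4, an eIF2B subunit, with 0.23 (edgeR adjusted p = 0.0371). Lower in KO were Eef1g, a subunit of eEF1B, with a log2 difference of −0.29 (edgeR adjusted p = 0.0237), Eif1 with −0.36 (edgeR adjusted p = 0.0249) and Eif3f with −0.31 (edgeR adjusted p = 0.0276). Eef2k, with −0.30 ± 0.0919 (edgeR adjusted p = 0.0359), and Eif4ebp1, with −0.43 ± 0.137 (edgeR adjusted p = 0.0421), were lower in KO as well. Only the Eif4e3 call held in every fit that left out 1 of the 13 saline libraries and in every other setting tried; that of Eif4ebp1 was lost in 8 of the 13 fits (highest edgeR adjusted p = 0.133). With library totals 6 members were called (1 higher, 5 lower), and without the ML1716 libraries 12 (4 higher, 8 lower). Leaving out KO saline 3 h replicate 2, WT saline 3 h replicate 1 or 3, or KO saline 24 h replicate 2 left 2 members called, and leaving out KO saline 24 h replicate 1 or WT saline 24 h replicate 2 left 4.

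Eef2k, the calcium-dependent kinase that inhibits eEF2, averaged 100 ± 7.19 CPM in KO saline (SD, n = 3) and 126 ± 14 CPM in WT saline libraries at 3 h (n = 3), and 108 ± 17.5 CPM in KO saline (n = 3) and 130 ± 19.2 CPM in WT saline libraries at 24 h (n = 4). After dexamethasone its genotype-mean log2 fold change was −0.17 at both times (edgeR adjusted p = 0.119 and 0.114). The comparison of KO with WT saline shares its libraries with the dexamethasone effects. For Eef1g the KO saline libraries averaged 173 ± 18.3 CPM at 3 h (SD, n = 3), below the WT saline mean of 206 ± 3.93 CPM (n = 3), while the dexamethasone means were 214 ± 22.1 CPM in KO and 215 ± 23.6 CPM in WT (n = 5 each). Its log2 fold change after dexamethasone at 3 h was 0.30 in KO (edgeR adjusted p = 0.0483, lost in 6 of the 8 fits that left out 1 of its libraries, highest value 0.321) and 0.06 in WT (edgeR adjusted p = 0.757).

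The members' changes went with exon length, most clearly at 3 h. Exon length here is the number of bases in all annotated exons of a gene, not the length of a transcript. At 3 h the Spearman correlation between exon length and the genotype-mean log2 fold change was −0.56 over the 64 members, against −0.22 over 13145 genes with an exon length, and at 24 h it was −0.24, against −0.03; the genes share libraries and depth. The 24 h mean joins unlike values. Over the members the correlation at 24 h was −0.36 in KO and 0.05 in WT, against −0.14 and 0.10 over all genes. Comparisons without dexamethasone held such correlations too, with −0.37 over the members for saline at 24 h against 3 h (−0.38 over all genes) and 0.39 for KO against WT in saline (0.29 over all genes). The 32 members with under 4.4 kb of exon had a median log2 fold change of 0.13 at 3 h, with 9 higher and 0 lower, and the 32 longer ones −0.04, with 2 higher and 2 lower. At 24 h the medians were 0.10 (10 higher, 1 lower) for the shorter and 0.03 (4 higher, 0 lower) for the longer members. Within KO they were 0.17 and 0.01, and within WT 0.05 and 0.07. Calls by length were not counted over all genes, so the counts of calls among shorter and longer members have no background. With exon length as an offset in each library, 9 members were called at 3 h (7 higher, 2 lower) and 15 at 24 h. The share of all genes called with the offset is not given. Eif2ak4 has 7457 exon bases and Eif4ebp1 has 2196, and with the offset their mean changes at 3 h were 0.65 and 0.44 (edgeR adjusted p = 2.47e-09 and 0.00593). The part of RNA quality in this pattern was not tested.

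**Figure D5:**
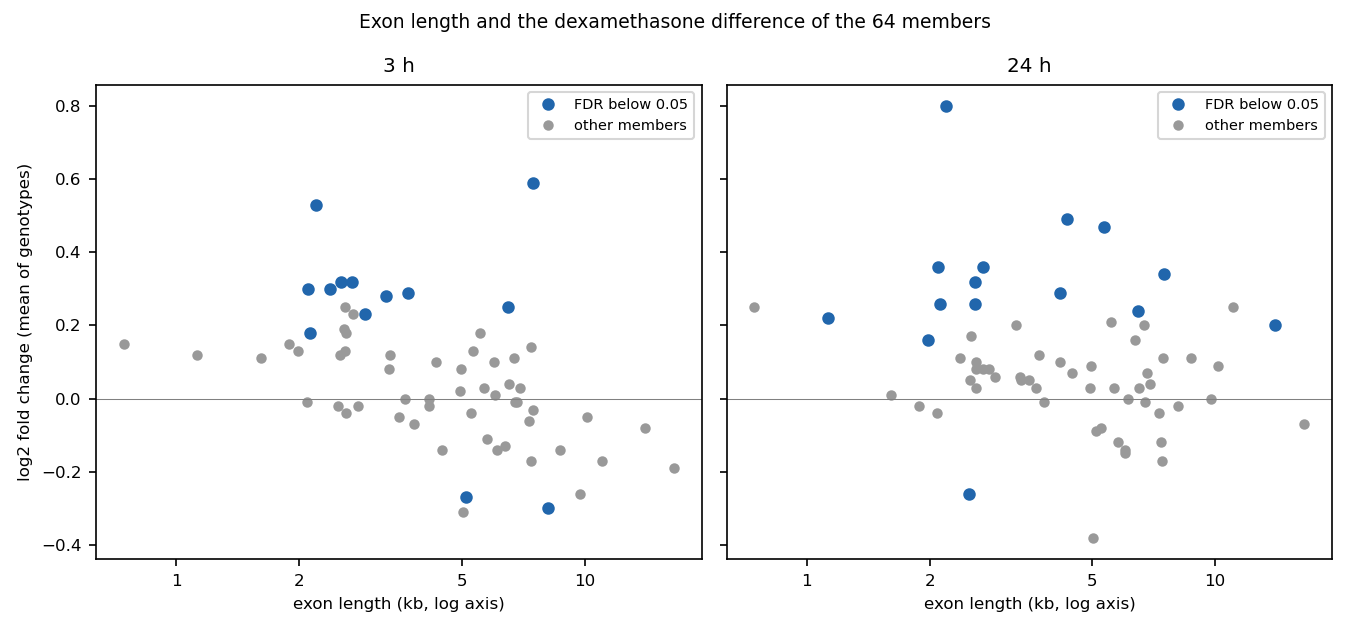
Exon length in kb (log axis) against the genotype-mean log2 fold change after dexamethasone for the 64 members, at 3 h and 24 h. At 3 h the short genes lie higher, with a median of 0.13 for the 32 shorter and −0.04 for the 32 longer genes; at 24 h the medians are 0.10 and 0.03.

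The genes that control these factors were taken from 3 lists. Of 20 tested genes of mTORC1 and its brakes and effectors, 3 rose and 1 fell at 3 h (20%, against 29.1% of all genes), and 4 rose and 3 fell at 24 h (35%, against 25.5%). Ddit4, which encodes the mTORC1 inhibitor REDD1, averaged 272 ± 57.4 CPM in KO dexamethasone (SD, n = 5) and 7.18 ± 2.01 CPM in KO saline libraries at 3 h (n = 3), and 275 ± 23.3 CPM in WT dexamethasone (n = 5) and 7 ± 3.97 CPM in WT saline libraries (n = 3). Its mean log2 fold change was 5.27 ± 0.265 (edgeR adjusted p = 9.15e-17), where the largest value of a translation factor at 3 h was 0.59. Sesn1, another mTORC1 inhibitor, rose by 1.28 at 3 h and 0.78 at 24 h (edgeR adjusted p = 3.19e-08 and 0.000124), and Rps6, a ribosomal substrate of the pathway, by 0.30 at 3 h (edgeR adjusted p = 0.00596). At 24 h Deptor and Mlst8, an inhibitor and a subunit of the mTOR complexes, fell by 0.40 and 0.28 on the log2 scale (edgeR adjusted p = 0.000321 and 0.000872).

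Of 18 tested genes of the integrated stress response, the transcription programme downstream of eIF2α phosphorylation, 2 rose and 6 fell at 3 h (44.4%, against 29.1% of all genes), and 2 rose and 1 fell at 24 h (16.7%, against 25.5%). Ddit3, which encodes CHOP, fell at 3 h by 1.25 on the log2 scale (edgeR adjusted p = 3e-09), and Nupr1, a stress-induced cofactor, by 0.62 (edgeR adjusted p = 2.41e-05), while Cebpb, a CCAAT-binding factor, rose by 1.57 (edgeR adjusted p = 7.46e-06). At 24 h Ppp1r15a, the subunit that directs dephosphorylation of eIF2α, rose by 0.99 (edgeR adjusted p = 1.37e-05), Atf4, the main transcription factor of the response, by 0.54 (edgeR adjusted p = 4.82e-05), and Cebpb fell by 0.64 (edgeR adjusted p = 0.0399). Ppp1r15a averaged 28.8 ± 4.14 CPM in KO dexamethasone (SD, n = 5) and 19.6 ± 3.42 CPM in KO saline libraries (n = 3), and 60.3 ± 15.7 CPM in WT dexamethasone (n = 5) and 22.3 ± 7.22 CPM in WT saline libraries at 24 h (n = 4). Of 24 genes of poly(A) binding, release, recycling and factor modification, 1 rose at 3 h (Dhps, which makes the hypusine of eIF5A, 0.34, edgeR adjusted p = 0.0172) and 6 rose at 24 h, 0 fell at either. That is 4.17% at 3 h and 25% at 24 h, against 29.1% and 25.5% of all genes. The 24 h calls with the smallest p were the cap-binding subunit Ncbp1 with 0.29 (edgeR adjusted p = 0.000126), the release factor Etf1 with 0.30 (edgeR adjusted p = 0.000238) and the helicase Ddx3x with 0.47 (edgeR adjusted p = 0.00124).

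The authors' deposited tables of the same 4 comparisons list all 64 members. At an adjusted p under 0.05 the authors' deposited table called 10 members in KO at 3 h (9 higher, 1 lower), 5 in WT at 3 h (2 higher, 3 lower), 18 in KO at 24 h (18 higher) and 12 in WT at 24 h (10 higher, 2 lower). Of the members called in the authors' deposited table, the edgeR fit called 6, 4, 11 and 5 as well, in that order. The share of all genes called in those tables is not given here, so these counts have no background.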

How the data were processed

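RNA-seq of quadriceps was analysed in 33 libraries, grouped by what the labels state of genotype, treatment and time. As deposited by the authors, each library has a file of raw read counts per gene symbol. STAR, HTSeq, limma 3.40.6 and the mm10 build are listed in the submitters' processing notes; neither the annotation nor the handling of multimapping reads is given in the sources used here. The kit was TruSeq RNA, unstranded, per the labels' protocols. Reads in no feature (24.6 to 33.2%) and ambiguous reads (0.188 to 0.3%) were left out. The authors also deposited tables with log2 fold changes, p-values and adjusted p-values, per the file headers; their design is not given in the sources used here.

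The fit used edgeR 4.0.16 under R 4.3.3: filterByExpr (13955 genes kept), TMM scaling (factors 0.932 to 1.09), 1 quasi-likelihood fit with a mean per group over all 33 libraries, 11 contrasts, and Benjamini-Hochberg adjustment over all genes at a false discovery rate of 0.05. A change is a log2 fold change, its SE its size over the square root of F, and CPM uses the TMM-scaled library size. The "mean of the genotypes" is the average of the KO and WT contrasts, and interactions are KO minus WT. The other settings were DESeq2 size factors, library totals, no filter, DESeq2 1.42.0, limma-voom with sample weights (limma 3.58.1), the fit without the ML1716 libraries, the name series as a covariate, an exon length offset (chosen after seeing the data; loess span 0.7, prior count 2) and each library left out in turn. Shares of all genes called are given for the fit described first and, for the genotype means, for library totals. They are not given for the other settings. Gene positions and exon lengths came from GENCODE M21 (GRCm38), which held all 64 members, 4 by an older symbol; for 8 members at least 10% of the exon bases overlap other genes. Counts of the 55 pairs of libraries within a group differed by a chi-square per degree of freedom of 10.9 or more, above counting noise, so no library was found deposited again; whether any shares a mouse with another cannot be told from this. Tested on simulated data for the genotype mean at 24 h over 13955 genes, the fit recovered 91% of 2-fold and 36% of 1.3-fold changes, with 11 false among 138 calls. In the simulation 100 genes were changed per fold size, while 25.5% of all genes were called at 24 h in the data. The adjusted cutoff therefore differs, and these rates need not hold for the data. Changes of the size seen here can still be missed.

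The members and gene lists were chosen with earlier results of these data known. Named with full values were the 6 called members with the smallest p at each time; Eif4ebp1, the eIF2α kinases, Eif4e, Eif4g1, Eef1a1, Eef1a2, Eef2 and Eef2k were described whatever their result, with the members called in the genotype, interaction or time contrasts (the 4 with the smallest p in each, where there were more). By the same rule, any other member called after dexamethasone within KO or within WT, at either time, could be named with its fold change. Eef1b2, Eef1e1, Eif3k, Eif1b, Eif2c2, Eif3g, Eif2b4 and Eif2d fall outside that rule and were named after their values were seen. Castor1, Castor2, Gcn1 and Mars1 carry other symbols in the files and were not counted in their lists.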

Additional observations from a re-analysis of the deposited data

Results flagged for a closer look

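In 8 of the 85 groups of 4 or 5 libraries examined over 17 members, 1 library lay far from the others by Dixon's criterion, which chance meets in about 1 of 20 groups. Of these, 4 were libraries of the ML1716 name series: Eif4g1 was lowest at 878 CPM in WT dexamethasone 24 h replicate 5 and at 764 CPM in WT saline 24 h replicate 4, and Eef1a2 was lowest in the same libraries, at 1497 CPM and 1364 CPM. The others were Eif4ebp1 at 36.8 CPM in WT dexamethasone 3 h replicate 5, the highest of its group, Eif2ak2 at 8.91 CPM in WT dexamethasone 3 h replicate 4, the lowest, Eef1a1 at 712 CPM in WT dexamethasone 3 h replicate 2, the highest, and Eef2k at 158 CPM in WT saline 24 h replicate 1, the highest.

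The effect of dexamethasone at 24 h minus that at 3 h passed the edgeR test for 7 members. The log2 differences were 0.39 for Eif4a1, 0.37 for Eif4e2, 0.34 for Eif4a2 and 0.28 for Eif2c1, and −0.48 for Eif2ak4, −0.26 for Eif2d and −0.25 for Eef1a1.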

How the results depend on the processing

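No called value of a member changed sign under any setting tried. Of the calls of single members, 496 held and 56 were lost over the 8 other settings, and 815 held and 191 were lost over the fits that left out 1 library each; of the values not called, 90 and 49 became calls. Counts of called members moved by over 1.5 times as follows. For WT at 3 h (4 called) the count was 2 with no filter, 8 by limma-voom, 8 without the ML1716 libraries and 7 with the name series as a covariate, and 2 to 4 over the fits without 1 library. For KO at 3 h (7) it was 4 with library totals and 12 by limma-voom, and 2 to 12 without 1 library. For the mean at 3 h (13) it was 21 by limma-voom, and 8 to 17 without 1 library. For WT at 24 h (5) it was 8 by DESeq2, 13 by limma-voom, 8 without the ML1716 libraries and 11 with the covariate, and 4 to 9 without 1 library. For KO at 24 h (11) it was 5 with the covariate, and 4 to 10 without 1 library; for the mean at 24 h (15) it was 10 to 17 without 1 library. For the difference between the times (7) it was 12 by limma-voom, 11 without the ML1716 libraries and 12 with the covariate, and 6 to 11 without 1 library. For KO against WT in saline (7) it was 13 by limma-voom, 12 without the ML1716 libraries and 13 with the covariate, and 2 to 10 without 1 library. For saline at 24 h against 3 h (0) it was 1 with DESeq2 size factors, 1 with library totals, 1 by DESeq2, 4 by limma-voom, 1 without the ML1716 libraries and 1 with the covariate, and 0 to 1 without 1 library. Shares of all genes called are not given beside these counts, and the cause of these shifts was not tested.

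No paired analysis was possible because replicate numbers are not part of the labels. With groups of 3 to 5 libraries, changes of 1.3-fold and some larger ones can be missed. For the genotype mean at 24 h the simulated data gave back 36% of 1.3-fold and 91% of 2-fold changes. How often changes are missed was not measured at the share of changed genes in these data. Counts of members not called therefore say little on their own.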
